A study of Mus musculus with 8 samples.

Results

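The p53 pathway was followed through 10 genes: Trp53, which encodes the transcription factor p53, and its direct targets Mdm2, Zmat3, Cdkn1a, Ccng1, Bax, Bbc3, Phlda3, Sesn1 and Trp53inp1. They were taken by name from a table of 12367 genes, and all 10 were present and passed the filter on low values. The cells were alveolar macrophages, the macrophages of the lung air spaces, sorted from untreated mice of 3 weeks as CD45+ F4/80+ CD11c+ cells. The 4 KO libraries came from CD11c-Cre Tfam-fl/fl mice and the 4 WT libraries from Tfam-fl/fl mice without Cre. Tfam encodes a protein that packages mitochondrial DNA and helps to start its transcription. Both genotypes carried the floxed alleles, and no group with Cre alone was analysed here, so an effect of Cre cannot be told apart from one of Tfam loss. CD11c is also part of the sort gate. For each library, 3 to 5 mice of either or both sexes were pooled.

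As background, p53 is a sensor of DNA damage and other stress that acts mainly by switching on genes. It is held low by MDM2, a ubiquitin ligase whose own gene is a p53 target, and much of its control acts on the protein and not on the Trp53 mRNA. Its targets stop the cell cycle, repair DNA, restrain growth signalling or trigger death through mitochondria. The level of an mRNA in a sorted population is an average, so fewer cells with a transcript and less RNA per cell cannot be told apart.

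In KO macrophages 7 of the 10 genes rose and 1 fell, and the other 2 did not pass. The gene that fell was Trp53 itself, while its targets Zmat3, Phlda3, Ccng1, Cdkn1a, Bbc3, Bax and Mdm2 rose by 0.54 to 1.20 on the log2 scale. The background was high: 38.7% of all 12163 tested genes passed in either direction, 18.7% higher and 20.0% lower in KO. The median log2 fold change was 0.585 over the 10 genes and -0.00633 over all tested genes. A gene is said to rise or fall where limma, a linear model fitted across all genes, gave a Benjamini-Hochberg adjusted p under 0.05. Values are the authors' normalised signal, scaled to library size, as mean ± SD over 4 libraries. Fold changes are KO over WT of log2(value + 1), so those of genes with low values come out too small.

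The letters to which p53 binds are known, and the promoters can be read for those letters. The p53 decamer, a 10-letter motif of purines, a C and G core and pyrimidines, was searched on both strands in RefSeq promoter windows (GRCm38.p6, 250 bases before to 50 after each start). It was found in 8.36% of all windows, and 9.55% of the genes with windows had it in at least 1. Of the 8 members with windows, 6 had it. Zmat3 and Trp53inp1 had no window. The stretches are shown because they hold those matches, which the capitals mark, each with its place in the genome and its strand.
Cdkn1a, chr17:29090876-29090967, plus strand: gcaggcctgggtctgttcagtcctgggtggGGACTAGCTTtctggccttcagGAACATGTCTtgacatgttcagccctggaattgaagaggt
Mdm2, chr10:117710905-117710974, minus strand: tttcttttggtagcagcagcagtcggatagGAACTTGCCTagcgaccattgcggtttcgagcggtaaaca
Ccng1, chr11:40755432-40755501, minus strand: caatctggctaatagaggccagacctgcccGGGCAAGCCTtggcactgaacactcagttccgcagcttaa
Bax, chr7:45467060-45467129, minus strand: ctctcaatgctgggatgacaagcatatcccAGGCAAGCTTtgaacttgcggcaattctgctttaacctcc
Sesn1, chr10:41887236-41887305, plus strand: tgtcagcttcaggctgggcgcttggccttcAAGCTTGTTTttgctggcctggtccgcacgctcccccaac
Trp53, chr11:69580274-69580303, plus strand: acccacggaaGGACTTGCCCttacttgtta

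Cdkn1a was the 1 member with a pair of decamers, 73 and 51 bases before its upstream start and 12 bases apart. The window of its downstream start, inside the annotated gene, had no match. Pairs with a spacer of up to 13 bases were found in 0.0731% of all windows. The 10 letters that follow its second decamer differ from the motif at 1 letter. The single decamers lay 186 bases before the start of Mdm2, 185 before Ccng1, 201 before Bax and 75 before Trp53. That of Sesn1 lay 173 bases before a downstream start, well inside the annotated gene. The other Sesn1 window, further upstream, had no match. Matches thus stood before genes that rose (Cdkn1a, Mdm2, Ccng1, Bax) and before Trp53, which fell. One also stood before the downstream start of Sesn1, which did not pass the test. Bbc3 and Phlda3, which rose, had no match in these windows. A match describes letters and does not show a bound site.

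Depth was 20243772 to 30263201 reads in the listed genes per KO library and 24776683 to 29161957 per WT library. The genotype labels held: Tfam was at 4.35 ± 0.648 in KO libraries and 30.3 ± 3.72 in WT libraries (log2 fold change -2.55, limma adjusted p = 1.02e-06). The 10 markers of alveolar macrophages were all measured, and their summed signal was 33320 to 38720 in KO and 31760 to 34310 in WT. Most of it was Chil3, at 24490 to 30293 in KO and 22376 to 25450 in WT, so the sum says little about the others. Of the 10, 2 rose and 3 fell, against 18.7% higher and 20.0% lower over all tested genes. Those lower in KO were the lectin Siglecf (ratio of means 0.388), Ear2 (0.213) and Adgre1 (0.632), which encodes the F4/80 of the gate. Itgax, which encodes CD11c and lends its promoter to the Cre, rose to 1776 to 2213 in KO, against 1048 to 1162 in WT, and Car4 rose as well. None of the 8 T and NK cell markers or of the 4 eosinophil markers had a value to analyse here. Of 6 measured markers of interstitial or monocyte-derived macrophages, 4 rose in KO. They included Ccr2, at 32.6 to 81.8 in KO and 22.6 to 32.5 in WT, and C1qa, at 8.27 to 29.3 in KO and 2.54 to 7.95 in WT, and KO replicate 1 was the highest library for both. The summed signal of these 6 was 121 to 444 in KO and 133 to 323 in WT. Most of it was Cd14, which did not pass, at 64.8 to 300 in KO and 101 to 275 in WT. The sum thus says little about the 4 that rose. The neutrophil receptor Cxcr2 was higher in KO (62.6 to 98.6, against 9.05 to 16.4 in WT), whereas S100a9 was lower, and the sum of 4 measured neutrophil markers was 74.7 to 114 in KO and 22.9 to 58.1 in WT. In KO most of this neutrophil sum was Cxcr2. S100a8 was at 11.6 ± 1.34 in KO and 11.8 ± 3.62 in WT. Retnlg, too low to be tested, was at 0.590 ± 0.463 in KO and 1.71 ± 1.005 in WT. A part of such other cells in the changes below was not tested. Of 14 measured markers of lung epithelium, endothelium and stroma, 0 passed by limma and 1, Cdh1, had an unadjusted p under 0.05 and passed, as higher in KO, with the replicate number as a block (limma adjusted p = 0.00139). The endothelial and stromal sum was 38.7 to 72.7 in KO and 26.2 to 124 in WT, highest in WT replicate 3. Among 7 dendritic cell markers Clec9a rose, and of the B cell markers Cd22 rose.

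The mRNA of the sensor was lower. Trp53 (ENSMUSG00000059552, build GRCm38, chromosome 11, 69580359 to 69591873) had 40.4, 46.6, 44.2 and 45.5 in KO replicates 1 to 4, against 55.2, 60.0, 56.8 and 55.4 in WT replicates 1 to 4. Every KO library lay below every WT library, as was the case for 19.6% of all tested genes. The means were 44.2 ± 2.71 in KO and 56.8 ± 2.20 in WT, a log2 fold change of -0.36 (SE of 0.0607, adjusted p = 0.00131 by limma). A processed pseudogene, Trp53-ps, is annotated on chromosome 17 and could share reads with it. It was not analysed here.

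The feedback ligase moved the other way. Mdm2 (ENSMUSG00000020184, chromosome 10, 117688875 to 117710758) had 94.2, 108, 95.8 and 102 in KO replicates 1 to 4, against 74.7, 63.7, 70.3 and 65.4 in WT replicates 1 to 4. The groups did not overlap, as was the case for 18.1% of all tested genes with KO above WT. The ratio of means was 1.46 (log2 fold change 0.54 with an SE of 0.0677, adjusted p = 0.000206 by limma). Its relative Mdm4, which binds and restrains p53 but is not itself the main ligase, was 75.1 ± 8.71 in KO and 80.1 ± 5.39 in WT (95% interval of the log2 fold change -0.29 to 0.10).

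**Figure D1:**
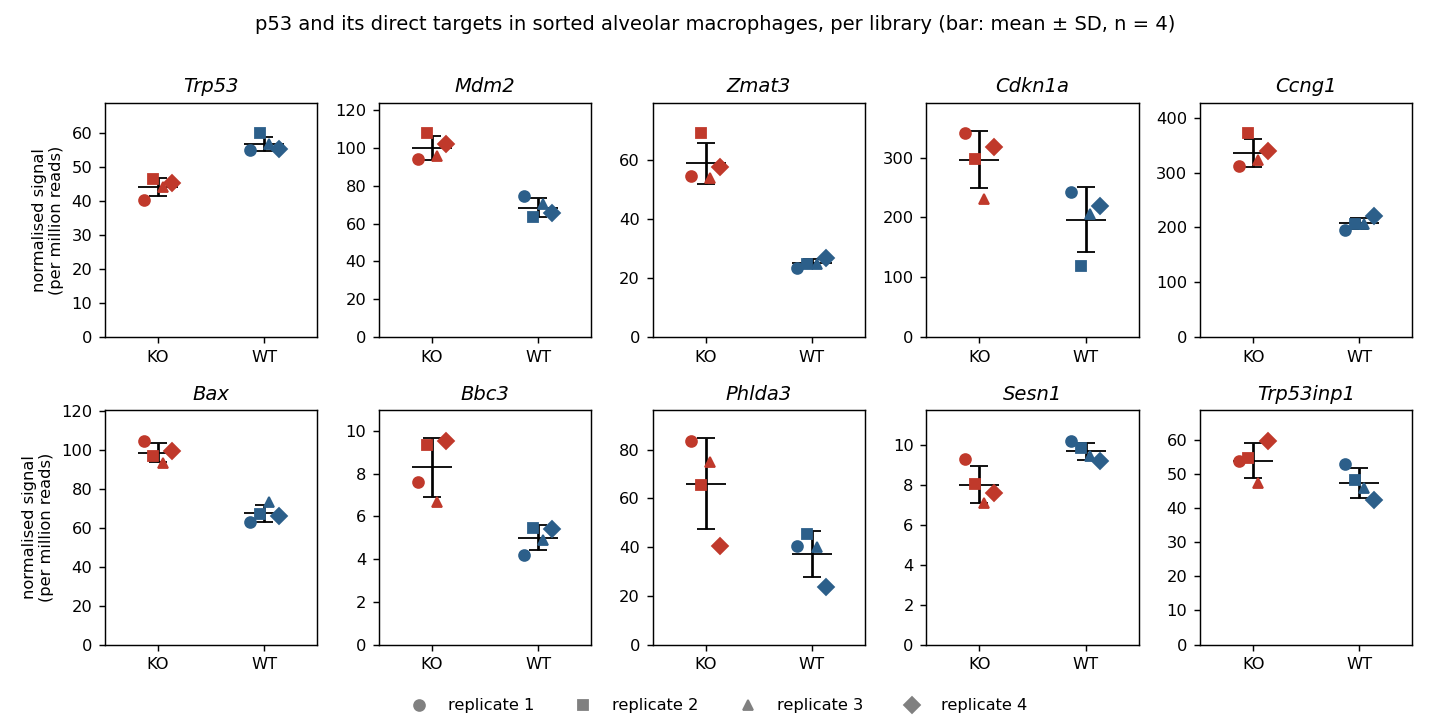
Normalised signal (y axis, from 0) of each of the 10 genes in the 4 KO libraries (left) and the 4 WT libraries (right). Points are libraries with a symbol for each replicate number, and bars are mean ± SD. Trp53 was lower in every KO library, and Mdm2, Zmat3, Ccng1, Bax and Bbc3 were higher in every KO library than in any WT library.

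Zmat3 changed most among the members. It encodes a zinc finger protein that binds RNA, shapes splicing and acts in tumour suppression by p53 in mice. Zmat3 (ENSMUSG00000027663, chromosome 3, 32334792 to 32366014) had 54.7, 68.9, 53.8 and 57.6 in KO replicates 1 to 4, against 23.4, 24.6, 24.8 and 26.8 in WT replicates 1 to 4. The lowest KO library was thus well above the highest WT library, and the ratio of means was 2.36 (log2 fold change 1.20 with an SE of 0.0851, adjusted p = 8.3e-06 by limma). The WT libraries were closely spaced, and KO replicate 2 was the highest library.

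Genes that act on the cell cycle were next. Cdkn1a encodes p21, an inhibitor of cyclin-dependent kinases and the best known effector of arrest by p53. Cdkn1a (ENSMUSG00000023067, chromosome 17, 29090976 to 29100727) had 340.4, 298, 230.2 and 317 in KO replicates 1 to 4, against 242, 119, 205 and 219.65 in WT replicates 1 to 4. The groups overlapped, since KO replicate 3 lay below WT replicate 1, and WT replicate 2 was far below the other WT libraries. The means were 296 ± 47.5 in KO and 196 ± 53.9 in WT (log2 fold change 0.63 with an SE of 0.209, adjusted p = 0.0386 by limma). The call did not pass without KO replicate 1 (adjusted p = 0.101), KO replicate 2 (0.079), KO replicate 4 (0.0786) or WT replicate 3 (0.0545), or without both replicate 4 libraries (0.0678). Without WT replicate 2 the log2 fold change was 0.40, still past the threshold. An annotated gene on the opposite strand, AC167363.2, shares 1046 bases with Cdkn1a.

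Ccng1 encodes cyclin G1, which recruits a phosphatase to MDM2 and is among the earliest described p53 targets. Ccng1 (ENSMUSG00000020326, chromosome 11, 40748552 to 40755311) had 313, 372, 324 and 339 in KO replicates 1 to 4, against 196, 207, 207 and 220.35 in WT replicates 1 to 4. No library of KO reached down to the WT range, and the log2 fold change was 0.69 (SE of 0.0636, adjusted p = 3.52e-05 by limma).

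Both members that act in mitochondrial cell death rose. Bax encodes the pore-forming effector that permeabilises the outer mitochondrial membrane. Bax (ENSMUSG00000003873, chromosome 7, 45461697 to 45466898) had 105, 96.8, 93.2 and 99.7 in KO replicates 1 to 4, against 62.8, 67.4, 73.3 and 66.4 in WT replicates 1 to 4. The groups did not overlap (log2 fold change 0.54 with an SE of 0.0614, adjusted p = 0.000115 by limma). A predicted gene on the same strand, Gm45808, shares 915 bases with Bax in the annotation.

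Bbc3 encodes PUMA, a BH3-only protein that sets BAX free to act. Bbc3 (ENSMUSG00000002083, chromosome 7, 16308393 to 16318205) was the least abundant risen member, with 106 to 275 reads per library. It had 7.63, 9.36, 6.68 and 9.54 in KO replicates 1 to 4, against 4.20, 5.46, 4.89 and 5.41 in WT replicates 1 to 4. Again every KO library was above every WT library, by a log2 fold change of 0.63 (SE of 0.129, adjusted p = 0.00382 by limma).

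The members that restrain growth signalling were split. Phlda3 encodes a small protein that competes with AKT for membrane lipids. Phlda3 (ENSMUSG00000041801, chromosome 1, 135766119 to 135769136) had 83.6, 65.6, 74.9 and 40.4 in KO replicates 1 to 4, against 40.3, 45.4, 40.02 and 23.7 in WT replicates 1 to 4. Replicate 4 was by far the lowest in both genotypes, so the groups overlapped although each KO library was above the WT library of the same number. The log2 fold change was 0.80 (SE of 0.246, adjusted p = 0.0281 by limma). The call did not pass without KO replicate 1 (adjusted p = 0.0791), KO replicate 2 (0.0623), KO replicate 3 (0.0759) or WT replicate 4 (0.0529), and it did without both replicate 4 libraries (0.000282).

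Sesn1 encodes sestrin 1, a restraint on mTORC1, the kinase complex that drives growth when nutrients are plentiful. Sesn1 (ENSMUSG00000038332, chromosome 10, 41809935 to 41908424) had 9.28, 8.04, 7.09 and 7.61 in KO replicates 1 to 4, against 10.2, 9.85, 9.47 and 9.21 in WT replicates 1 to 4. KO replicate 1 lay within the WT range and the other KO libraries below it. The log2 fold change of -0.25 (SE 0.0934) did not pass (limma adjusted p = 0.0584), and its sign was opposite to that of the risen targets. It passed with the replicate number as a block (adjusted p = 0.0403) and without KO replicate 1 (0.0235). A gene on the same strand, 9930024M15Rik, shares 2584 bases with Sesn1.

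Trp53inp1 encodes a stress protein that takes part in p53 phosphorylation and in autophagy. Trp53inp1 (ENSMUSG00000028211, chromosome 4, 11156431 to 11174379) had 54.0, 54.8, 47.6 and 59.8 in KO replicates 1 to 4, against 52.999, 48.4, 46.0 and 42.5 in WT replicates 1 to 4. The groups overlapped, and the log2 fold change of 0.18 (95% interval -0.01 to 0.38, limma adjusted p = 0.124) did not pass.

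Libraries with the same replicate number deviated together across all genes, which allows each KO library to be set against its WT partner. All 10 members had the same direction in 4 of 4 such pairs, against 58.7% of all tested genes: KO was above WT in all 4 pairs for 28.0% and below it for 30.7%. For Zmat3 the ratio of KO over WT was 2.34, 2.80, 2.17 and 2.15 in replicates 1 to 4. For Phlda3 it was 2.08, 1.44, 1.87 and 1.71, so its ratio varied less than its level. Cdkn1a ratios spread widest, at 1.41, 2.51, 1.12 and 1.45. Trp53 ratios were close to each other, at 0.732, 0.777, 0.779 and 0.820.

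**Figure D2:**
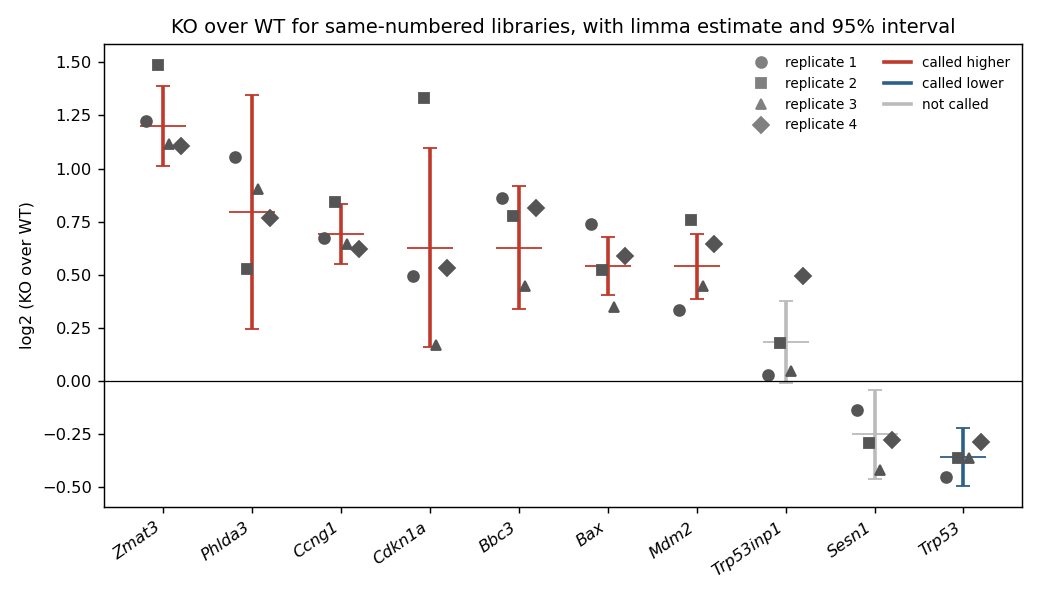
Log2 ratio of KO over WT (y axis) for each gene, with a point for each same-numbered pair of libraries (no pseudocount) and, as coloured bars, the limma estimate with its unadjusted 95% interval. All 4 points of every gene lie on the same side of 0. Zmat3 stands highest, at an estimate of 1.20, and Trp53 lowest, at -0.36.

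Within a genotype the members did not move as a block. Deviations of each library from its genotype mean were correlated for the 45 member pairs over the 8 libraries, which are the same for every member pair and include same-numbered pairs. Pearson r lay between -0.586 and 0.958, with a median of 0.0396. The highest value joined Zmat3 and Ccng1. Both of these also went with Bbc3, Zmat3 at 0.717 and Ccng1 at 0.753. For Cdkn1a, r was 0.0975 with Zmat3 and 0.53 with Mdm2. For Phlda3, r was -0.37 with Zmat3 and -0.564 with Bbc3, and for Bax it was 0.00927 with Zmat3. The lowest value joined Trp53 and Cdkn1a. Over all tested genes, those with the highest r of deviations to a member were Dhx33 (0.984) and Cd22 (0.979) for Zmat3, and Marf1 (0.992) and Zfp397 (0.982) for Ccng1. For Bbc3 they were Malat1 (0.989) and Tnfrsf10b (0.985), a death receptor gene and p53 target. For the other 7 members the nearest genes had r of 0.944 to 0.995, and such values, picked as the highest of 12163 genes over 8 libraries, are a description only. The most alike were Mtif2 and Zfp965 for Trp53, Hnrnpll and Ankrd26 for Mdm2, Unc45a and Id1 for Cdkn1a, S1pr4 and Plekhg2 for Bax, Med22 and Fubp3 for Phlda3, Bola1 and Bbs9 for Sesn1, and Spata1 and Emc3 for Trp53inp1.

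**Figure D3:**
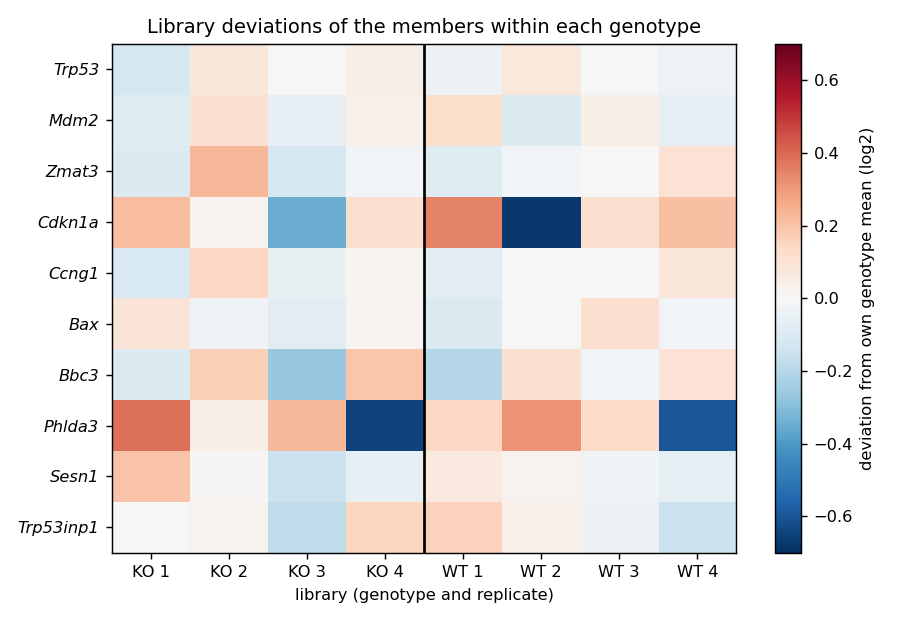
Deviation of each library (x axis, 4 KO then 4 WT) from the mean of its genotype on the log2(value + 1) scale, for each of the 10 genes (rows). Blue is below and red above the genotype mean. Phlda3 is low in replicate 4 of both genotypes, and Cdkn1a is low in WT replicate 2.

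Members were then set against relatives in their own gene families. Of 13 measured relatives, 3 rose, 5 fell and 5 did not pass, against 18.7% higher and 20.0% lower over all tested genes. Cdkn1c, among those that rose, passed the filter on low values only through its KO libraries. The log2 ratio of member over relative was compared between genotypes by two-sided exact permutation tests, adjusted over the 8 ratios, with 0.0286 the smallest unadjusted p that 4 against 4 libraries allow. In 5 of the 8 ratios the member gained on its relative, with adjusted p of 0.0381 each. Mdm2 over Mdm4 was 0.41 ± 0.14 in KO and -0.22 ± 0.16 in WT, a difference of 0.64 (SE 0.105). Cdkn1a over Cdkn1b, which encodes the related inhibitor p27, was 2.35 ± 0.13 in KO and 1.301 ± 0.47 in WT, a difference of 1.05.

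The cyclin G genes went in opposite directions. Ccng1 over Ccng2 differed by 1.17 (SE 0.123), and Ccng2, a cyclin induced by FOXO factors, fell to 34.9 ± 4.98 in KO, against 48.8 ± 1.76 in WT (limma adjusted p = 0.00269). Bax over Bak1, the other pore-forming effector, differed by 0.48 (SE 0.0766), and Bak1 was 72.8 ± 4.18 in KO and 69.6 ± 3.17 in WT (95% interval of its log2 fold change -0.07 to 0.20). Trp53inp1 over Trp53inp2, an autophagy protein, differed by 0.51 (SE 0.0788), although Trp53inp1 alone did not pass. Trp53inp2 itself fell (log2 fold change -0.33, limma adjusted p = 0.012), against 0.18 for Trp53inp1, so the larger part of this difference came from the relative. Phlda3 over Phlda1 differed by 1.77 (SE 0.503) but overlapped between genotypes and did not pass (adjusted p = 0.0653).

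Sestrins went in different directions. Sesn2, known as a target of both p53 and the stress factor ATF4, had 43.4, 53.3, 64.5 and 26.5 in KO replicates 1 to 4, against 23.2, 21.6, 22.2 and 20.1 in WT replicates 1 to 4. It rose (log2 fold change 1.005 with an SE of 0.221, adjusted p = 0.00559 by limma), and Sesn1 over Sesn2 was -2.35 ± 0.58 in KO and -1.09 ± 0.05 in WT, a difference of -1.26 (adjusted p = 0.0381). Sesn3 fell by 0.52 on the log2 scale (limma adjusted p = 0.0241). The ratio of Sesn1 over Sesn3 differed by 0.27 (SE 0.166) and did not pass (adjusted p = 0.143).

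**Figure D4:**
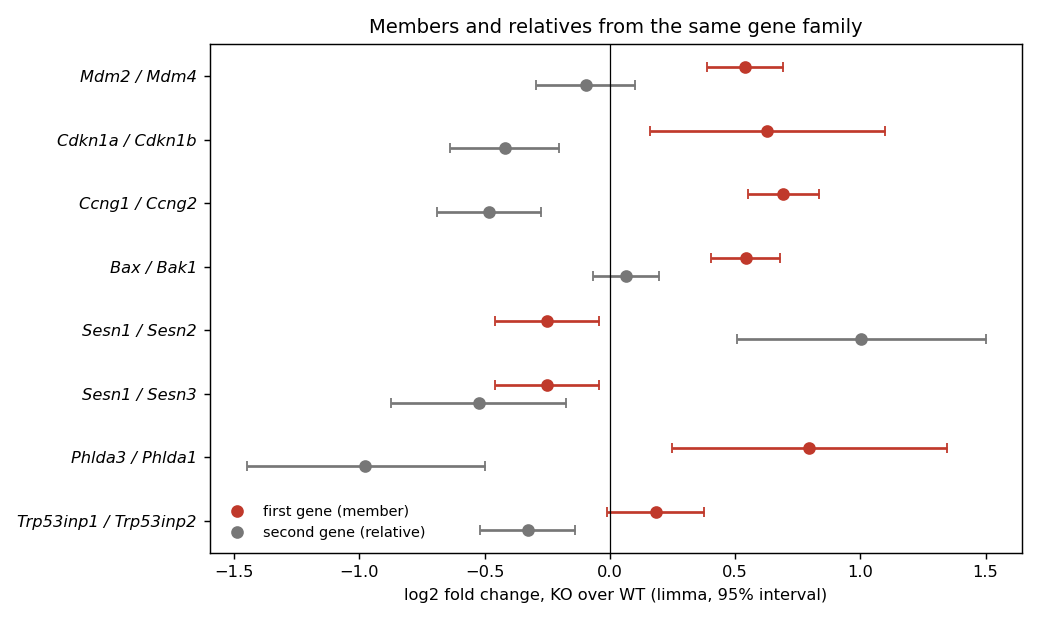
Log2 fold change of KO over WT (x axis) with its unadjusted 95% interval from limma. Each of 8 rows holds a member (red, upper) and a relative of the same gene family (grey, lower). Trp53, Zmat3 and Bbc3 are not drawn. Mdm2, Cdkn1a, Ccng1 and Phlda3 lie above 0 while Cdkn1b, Ccng2, Phlda1 and Trp53inp2 lie below it. Sesn2 lies above 0 at 1.005 and Sesn1 below it at -0.25.

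The counts for further p53 targets and regulators stand against 18.7% higher and 20.0% lower over all tested genes; they describe the genes and set no list apart. Among 14 measured targets of arrest and DNA repair, 4 rose, 2 fell and 8 did not pass, with a median log2 fold change of 0.0721. With the replicate number as a block, 5 rose and 4 fell, and over all 12163 genes 2730 rose and 2952 fell. Gadd45a, a stress protein of growth arrest and repair, rose to 15.5 ± 5.85 in KO, against 4.30 ± 1.41 in WT (log2 fold change 1.61 with an SE of 0.277, adjusted p = 0.00143 by limma). Sesn2, Plk2 and Psrc1 also rose. The 2 that fell, Ckap2 (log2 fold change -1.75) and Gtse1 (-0.77), encode spindle and G2 phase proteins that dividing cells express. The repair genes Ddb2, Xpc, Polk, Ercc5 and Rrm2b did not pass, with log2 fold changes of -0.03 to 0.26, but Polk passed with the block (limma adjusted p = 0.016). Btg2, an antiproliferative gene, had a log2 fold change of -0.98 and did not pass (limma adjusted p = 0.154), with means of 213 ± 108 in KO and 407 ± 172 in WT. Its KO over WT ratio was 0.618, 0.460, 0.427 and 0.535 in replicates 1 to 4, and with the block it passed (limma adjusted p = 3.1e-05). Plk3, a stress kinase gene, also passed only with the block, as lower in KO (limma adjusted p = 0.0208).

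Among 20 measured targets of death, autophagy and metabolism, 5 rose, 4 fell and 11 did not pass, with a median of 0.0896. The secreted stress factor Gdf15 rose most, to 90.4 ± 17.1 in KO, against 21.5 ± 8.93 in WT (log2 fold change 2.09). The exonuclease Aen, the BH3-only gene Bid, the ribosomal protein gene Rps27l and Tigar, which lowers glycolytic flux, rose by 0.26 to 0.76. Pidd1, a scaffold for caspase activation, fell by 0.79 and Perp, a desmosomal death gene, by 0.44. Apaf1, the core of the apoptosome, and Sulf2 fell as well, by 0.29 and 0.37. The death receptor genes Fas (log2 fold change -0.12) and Tnfrsf10b (0.39), and Pmaip1 (0.44), which encodes NOXA, did not pass. With the block Pmaip1 passed as higher in KO (limma adjusted p = 0.00213), with KO above WT in 4 of 4 same-numbered pairs, and the list then had 6 higher and 4 lower.

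Of 21 measured genes that act on p53, 2 rose, 5 fell and 14 did not pass, with a median of -0.0973. The 2 that rose, Rpl5 (log2 fold change 0.90) and Rpl11 (0.57), encode ribosomal proteins that can bind MDM2 and are part of a ribosomal protein family with many pseudogenes, between which reads may be shared. The checkpoint kinase gene Chek1 fell to 3.28 ± 0.302 in KO, against 7.55 ± 1.89 in WT (log2 fold change -0.97, limma adjusted p = 0.000932). Prkdc, a kinase of double-strand break repair, fell by 0.39, and Ppm1d, Cop1 and Ppp1r13b by 0.22 to 0.34. Cop1 was close to the threshold (limma adjusted p = 0.0492). Under quantile normalisation or median centring, 3 of the regulators fell in place of 5. When each library was left out, the regulators that fell numbered 2 (without WT replicate 1) to 6 (without KO replicate 4). Atm, Atr, Chek2, Usp7 and Ep300 did not pass. With the block 3 regulators rose and 7 fell: the kinase gene Hipk2 passed as higher (limma adjusted p = 0.012), and the damage kinase genes Chek2 (0.0178) and Atm (0.0396) passed as lower.

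**Figure D5:**
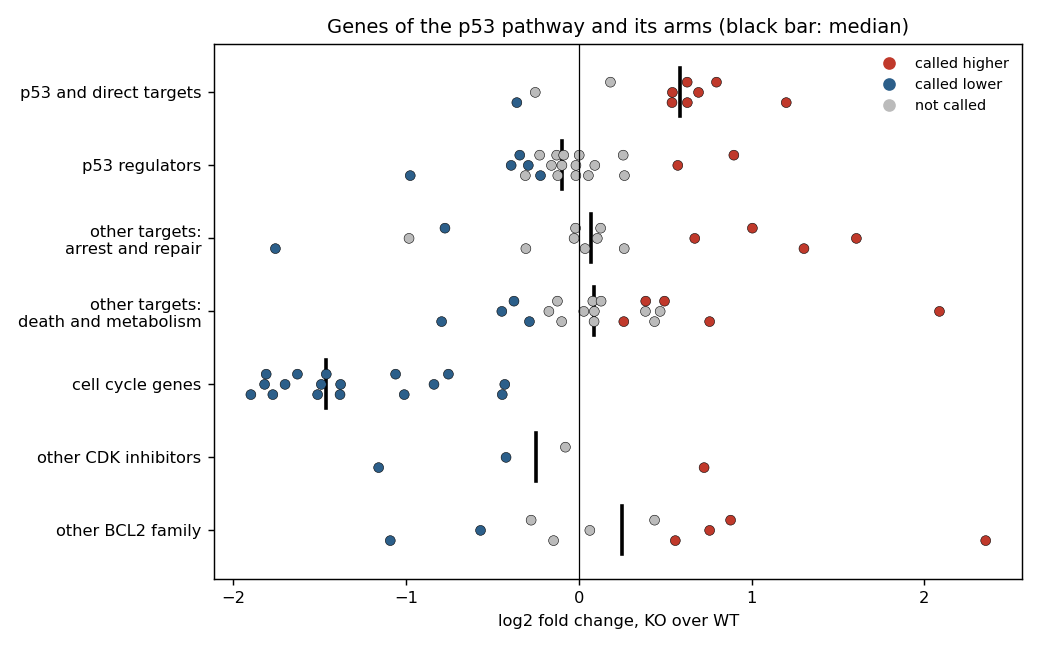
Log2 fold change of KO over WT (x axis) for each measured gene of 7 groups (rows): the 10 members, p53 regulators, further p53 targets in 2 groups, cell cycle genes, other CDK inhibitors and other BCL2 family genes. Red points rose, blue points fell, grey points did not pass, and black bars are medians. The median is 0.585 for the members and -1.46 for the cell cycle genes.

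A list of cell cycle genes known to be held down when p21 acts had 17 measured genes. Of these, 17 fell, against 18.7% higher and 20.0% lower over all tested genes. Their median log2 fold change was -1.46. Whether p21 had a part in this fall was not tested. Topoisomerase Top2a was at 41.7 ± 9.16 in KO and 158 ± 31.6 in WT, and cyclin A gene Ccna2 at 17.8 ± 4.35 in KO and 65.1 ± 15.3 in WT. Cyclin B2 gene Ccnb2 and Foxm1, a transcription factor of mitotic genes, fell by 1.77 and 1.81. Of 4 other CDK inhibitors measured, 1 rose and 2 fell, against the same shares over all tested genes. Cdkn1c rose (log2 fold change 0.73), at 1.60 to 1.99 in KO and 0.550 to 0.895 in WT. It thus reached the filter value of 1 in the 4 KO libraries only, and was not tested when any KO library was left out. Its rise is a description only. Cdkn1b (-0.42) and Cdkn2c (-1.16) fell. Cdkn2a, Cdkn2b and the p53 relatives Trp63 and Trp73 had no value to analyse here.

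In the rest of the BCL2 family, 4 of 10 measured genes were higher, 2 lower and 4 did not pass, against 18.7% higher and 20.0% lower over all tested genes. Bid, described above, is among the 4 higher. With the block 5 were higher and 3 lower, with the survival gene Mcl1 passing as lower (log2 fold change -0.28, limma adjusted p = 0.00385) and Pmaip1 as higher. Bok, a BAX relative, had the largest change, at 25.6 ± 7.87 in KO and 4.42 ± 2.19 in WT (log2 fold change 2.35 with an SE of 0.355, adjusted p = 0.000645 by limma). Like Phlda3, it was lowest in replicate 4 of both genotypes, at 14.8 in KO and 1.38 in WT. The survival genes Bcl2l1 (log2 fold change 0.56) and Bcl2 (0.88) rose together with Bax and Bbc3. Bcl2 was low, at 1.22 to 2.63 in KO and 0.217 to 1.35 in WT, and its groups overlapped. The BH3-only genes Bmf and Bcl2l11, whose product is BIM, fell by 1.09 and 0.57.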

How the data were processed

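Per the labels' protocols, digested lungs went through magnetic CD11c selection before the sort, and a directional kit was used for the libraries. Named in the submitters' processing notes are the build GRCm38 and the tools limma, RSEM 1.3.1, cutadapt 1.7.1 and CASAVA 1.8.2. For the aligner, annotation and strand setting, the notes used here name none. The authors deposited a table of normalised signal, by gene and library. Its spacing shows a whole read number plus 0.5 over a scaled library size (100% of values at a tolerance of 0.01). The 3 read floor was a value of 0.117 to 0.178 and covers counting error only. All rows exceed 1 CPM (reads scaled to library size) in at least 3 libraries, so rarer genes were not analysed here.

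Tested genes reached 1 in 4 or more libraries, and were fitted on log2(value + 1) with limma 3.58.1 in R 4.3.3 (mean-variance trend, two-sided, adjusted over 12163 genes). The steps were tested on simulated data. Ratios used exact permutation tests. Samples were grouped by title. Deviations of same-numbered libraries correlated at 0.363, 0.286, 0.394 and 0.431, against -0.374 to 0.0917 for others; no label explains the numbers. Promoters are from RefSeq, and coordinates of genes from GENCODE M21 (GRCm38) by Ensembl ID. The members and lists were chosen with earlier results of these data known. Genes named beyond the members and Tfam were up to 4 per list by fold change among non-overlapping called genes, the family relatives, and the 2 most alike genes per member. The other genes named, markers included, were chosen after their values were seen. Alternatives were other filters, pseudocounts, scalings, no trend, the replicate block and leaving out each library. Leaving out both replicate 4 libraries, voom weights and log2 values without a further pseudocount were added after seeing the data.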

Additional observations from a re-analysis of the deposited data

Results flagged for a closer look

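None of the 10 members or Tfam had a library that stood apart from its group of 4 by the ratio of its gap to the group's range. Among 59 genes named, searched in 118 groups, 4 had such a library, and chance gives about 1 in 20 groups. Cdkn2c was 8.85 in WT replicate 4, against 13.6 to 13.8 in the other WT libraries. Fubp3 was 38.8 in WT replicate 4, against 44.2 to 45.2 in the others. Sesn3 was 3.99 in KO replicate 2, against 5.54 to 5.80 in the other KO libraries. Unc45a was 34.8 in WT replicate 2, the library in which Cdkn1a was also lowest, against 40.3 to 40.8 in the others.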

How the results depend on the processing

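Of 208 alternative values for the 10 members and Tfam, 195 kept their direction and their side of the threshold, 10 lost the call, 3 gained it and 0 reversed; Bbc3 had no value under a minimum of 8. Cdkn1a, at a log2 fold change of 0.63, did not pass without the variance trend (adjusted p = 0.0559) or without both replicate 4 libraries (0.66, adjusted p = 0.0678). Sesn1 passed, at -0.25, without the variance trend (adjusted p = 0.0395) and with the replicate number as a block (0.0403), which changed no other call among the members and Tfam. When each library was left out, log2 fold changes lay between 0.40 and 0.74 for Cdkn1a, 0.60 and 1.01 for Phlda3 and -0.32 and -0.20 for Sesn1. With the block, genes called numbered 10 of the regulators (7 without it), 9 of the arrest and repair targets (6), 10 of the death and metabolism targets (9), 8 of the other BCL2 genes (6) and 9 of the relatives (8), against 5682 of all genes (4708). When each library was left out, the members called numbered 6 to 8, and the regulators called 4 to 9. The exact permutation test of a ratio over 4 against 3 libraries cannot go below p = 0.0571, so none could pass; the differences were 0.57 to 0.70 for Mdm2 over Mdm4, 0.82 to 1.16 for Cdkn1a over Cdkn1b, 1.09 to 1.25 for Ccng1 over Ccng2, 0.44 to 0.53 for Bax over Bak1, -1.48 to -1.03 for Sesn1 over Sesn2 and 0.47 to 0.58 for Trp53inp1 over Trp53inp2. The causes were not tested.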
